A study of Mus musculus with 4 samples.

Results

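The cells described here are the 141 cells of the E10.5 XY gonad library that carried at least 3 of 7 genes, Epcam, Pdx1, Cldn6, Cldn7, Gcg, Pyy, and Iapp, with 1 or more UMI. A UMI (unique molecular identifier) marks a single captured transcript molecule. These were 141 of the 3837 retained cells of this library, or 3.67% (exact binomial 95% interval, 3.10 to 4.32), and 141 of 10987 retained cells in the 4 libraries. Retained cells had between 1000 and 4000 detected genes and less than 10% mitochondrial UMIs. For comparison, 3482 cells that carried none of the 7 genes were used, and 214 cells with 1 or 2 of them were kept apart.

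The series holds scRNA-seq of embryonic XY gonads at E10.5, E11.5, and E12.5 from ICR mice and of gonadal cells induced for 6 days from XY ESCs. The labels give the ESC line as C57BL/6J with the reporters Nr5a1-hCD27a and Sox9-2A-CGFP, whereas the methods name the first reporter Nr5a1-hCD271 and derive the line from 129X1/SvJ females crossed to C57BL/6J males that carried it. The cells were enriched with magnetic beads for the human CD271 reporter. There was 1 library for each condition, so that no test between samples was possible, and all intervals cover counting error only. No treatment or mutation is labelled for the in vivo gonads, and how many embryos were pooled is not given in the sources used here. Per the methods, dorsal mesenchyme beside the gonads was left in the E10.5 tissue, and the older gonads were freed of the mesonephros. The authors' E10.5 matrix held 40199985 UMIs in 4473 cells.

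The gut tube is lined by endoderm, and the pancreas grows from buds of this epithelium in the posterior foregut, where the homeobox factor Pdx1 is required. The earliest endocrine cells of the mouse pancreas are known to contain glucagon, often with peptide YY. Epcam and the claudins are cell adhesion and tight junction proteins that are shared by many epithelia, among them the nephric duct, which runs beside the gonad.

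The cells were chosen by the measured UMIs of the 7 genes, so these values are given as a description. Cldn6 (ENSMUSG00000023906, chr17:23679249-23682446 of GRCm38) was found in 141 of 141 cells, Epcam (ENSMUSG00000045394, chr17:87635979-87651129) in 140, and Cldn7 (ENSMUSG00000018569, chr11:69964779-69967885) in 135. The median in the cells that carried them was 5 UMIs of Cldn6, 4 of Epcam, and 3 of Cldn7. Thus the choice rested almost wholly on the 3 junction genes, and 119 of the 141 cells (84.4%) carried these 3 and no other gene of the rule. The cells are therefore called Epcam/Cldn6/Cldn7 cells below. Pdx1 (ENSMUSG00000029644, chr5:147269959-147275848) was found in 17 of them with at most 5 UMIs per cell, and in no other retained cell of the library. The hormone genes were rarer. Pyy (peptide YY, ENSMUSG00000017311, chr11:102106676-102107832) was found in 8 cells, Gcg (proglucagon, ENSMUSG00000000394, chr2:62474530-62483650) in 4, and Iapp (islet amyloid polypeptide, ENSMUSG00000041681, chr6:142298423-142303961) in 3.

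**Figure D1:**
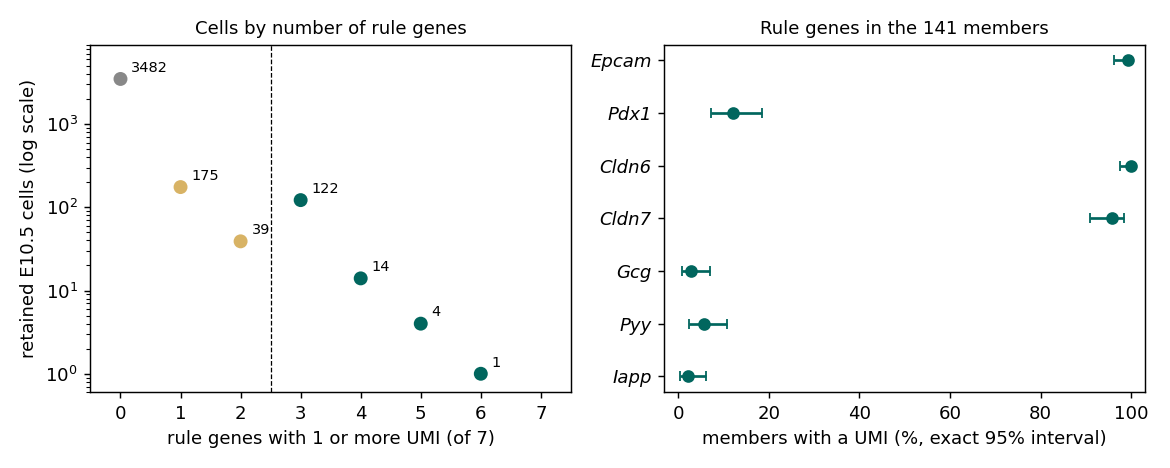
Left, retained E10.5 cells (log scale) by the number of rule genes with a UMI, with members of the group right of the dashed line. Right, the share of the 141 members with a UMI of each rule gene, in percent with exact 95% intervals. Cldn6, Epcam, and Cldn7 lie above 95%, and Pdx1 and the hormone genes below 13%.

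At its lower side, the rule cut at a low point in the counts. Of the retained cells, 175 carried 1 gene, 39 carried 2, and 122 carried 3. Just outside it, 39 cells carried 2 genes, with a median of 6342 UMIs, and just inside it 122 cells carried 3, with a median of 6809.5. Of the 39 cells, 36 had at least 3 genes of a list of epithelial junction and keratin genes, as had 122 of the 122. In comparison cells the share was 14.4%. Germ cell markers, at least 3 of a list of 13, were found in 2 of the 39 cells and in 0 of the 122. Cells with 2 genes thus mostly carried epithelial genes as well.

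Promoters are shown for the hormone genes, whose UMIs set a few cells far apart from the rest. They run from 250 bases before to 50 after the transcription start, as RefSeq gives them on GRCm38.p6. Capitals mark ATATAA on either strand (TTATAT is the same motif on the opposite strand), which was chosen after the sequences were seen. Gcg lies at chr2:62483604-62483903, minus strand, Pyy at chr11:102107783-102108082, minus strand, and Iapp at chr6:142298175-142298474, plus strand.
Gcg: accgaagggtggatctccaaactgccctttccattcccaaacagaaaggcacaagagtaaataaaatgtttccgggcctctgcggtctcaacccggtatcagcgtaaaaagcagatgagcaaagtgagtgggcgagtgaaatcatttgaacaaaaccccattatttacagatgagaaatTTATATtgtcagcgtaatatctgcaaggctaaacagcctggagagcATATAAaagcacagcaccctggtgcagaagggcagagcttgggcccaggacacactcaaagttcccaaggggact
Pyy: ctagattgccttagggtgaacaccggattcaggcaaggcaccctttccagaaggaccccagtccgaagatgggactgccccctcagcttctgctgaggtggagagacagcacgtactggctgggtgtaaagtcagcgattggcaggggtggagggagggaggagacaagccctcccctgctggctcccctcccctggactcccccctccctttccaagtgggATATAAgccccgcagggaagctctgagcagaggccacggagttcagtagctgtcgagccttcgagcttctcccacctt
Iapp: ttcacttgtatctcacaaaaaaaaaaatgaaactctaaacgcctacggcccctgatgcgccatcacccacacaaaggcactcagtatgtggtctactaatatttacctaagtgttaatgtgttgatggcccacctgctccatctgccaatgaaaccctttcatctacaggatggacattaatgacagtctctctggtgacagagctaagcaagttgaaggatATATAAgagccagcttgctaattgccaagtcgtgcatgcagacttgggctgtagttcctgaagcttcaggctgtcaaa
The motif began at -28 from the start in Pyy and Iapp and at -71 and -25 in Gcg. It was present in 9.82% of 32851 promoters of the same length. For Pyy, the first of 2 listed starts is shown. The homeobox core TAAT was found 2 times in Gcg, 0 times in Pyy, and 5 times in Iapp, and 58.0% of all promoters held it on either strand. No TAAT overlapped ATATAA in the 3 promoters, and these matches describe the letters only.

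The group was not uniform. Cells were sorted by marker lists, a cell being marked by a list when it carried at least 3 of its genes. Of the 141 cells, 67 (47.5%, 39.1 to 56.1) were marked by at least 1 of 5 lists (endoderm transcription factors and hedgehog ligands, liver, gut tube regions, pancreatic endocrine, and pancreatic or duodenal progenitor), 37 (26.2%, 19.2 to 34.3) by a nephric duct list only, and 36 (25.5%, 18.6 to 33.6) by none of them. The remaining cell was marked by both kinds. The label of an endodermal and pancreatic epithelium was thus met by under 50% of the cells, and Pdx1 or a hormone gene by 22 of them. Median depth was 6424 UMIs in endoderm-marked, 7462 in duct-marked, and 6571.5 in unmarked cells, against 8180 in comparison cells.

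The lists were not equally sharp. Of the comparison cells, 4.14% were endoderm-marked and 0.632% duct-marked. At least 3 genes of the liver list were carried by 63 members and by 0 of 3482 comparison cells, which allows a share of up to 0.0862%. For the endoderm transcription factors and hedgehog ligands, the counts were 50 members (35.5%) and 27 comparison cells (0.775%). For gut tube regions they were 9 (6.38%) and 0, and for pancreatic or duodenal progenitors 12 (8.51%) and 18 (0.517%). The pancreatic endocrine list, which holds many genes of neurons, was met by 7 members (4.96%) and by 109 comparison cells (3.13%). The share among members (2.02 to 9.96) therefore could not be told from that of the comparison cells at this count.

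In endoderm-marked cells, the forkhead factors that open endodermal chromatin were common. These factors and the GATA factors below are on the list of endoderm transcription factors, so that their values in the subgroups were in part set by the sorting and are a description. Foxa1 was found in 47 of 67 cells (70.1%, 57.7 to 80.7) at 199.9 CPM, where CPM is the gene's count per 1000000 UMIs of a group, all its cells added up. Foxa3 was found in 29 and Foxa2 in 22. None of the 3 was found in any of the 37 duct-marked cells, which allows a share of up to 8.11%, and in comparison cells Foxa1 was found in 0.172%. The zinc finger factors Gata4 and Gata6 were found in 27 and 21 of the 67 cells and in 0 of the duct-marked and 0 of the unmarked cells. Over all members Gata6 was found in 15.6%, against 20.3% of comparison cells, so that this gene did not set the group apart.

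Some genes of secreted plasma proteins, on the liver list, were frequent in endoderm-marked cells and others rare or not found. Carrying at least 3 genes of this list was itself a way to be endoderm-marked, which 62 of the 67 cells met, so that these values too are a description. Rbp4, the plasma carrier of retinol, was found in 60 of 67 cells (89.6%) at 1692 CPM (1577 to 1813), and in 2.44% of comparison cells at 2.98 CPM. Ttr (transthyretin, a carrier of thyroid hormone) was found in 51 cells at 799.6 CPM and in 0.201% of comparison cells. The cell with most Gcg held 188 of its 380 UMIs, and without that cell, a setting chosen after seeing the data, the level was 412.5 CPM. Serpina1b, Serpina1a, and Afp were found in 42, 37, and 31 of the 67 cells, and Ambp in 56. Serpina1a and Serpina1b encode near-identical protease inhibitors, and the split of reads between them is uncertain. In contrast, Trf was found in 11, Apob in 5, Apoa2, Ahsg, and Fgg in 1 each, and Apom in 0 of the 67 cells, and Alb, the gene of serum albumin, Fga, and Fgb had 0 UMIs in all 141 cells. For Alb, 0 of 67 endoderm-marked cells allows a share of cells with a UMI of up to 4.48%, which does not limit the share that expresses it, while 11 comparison cells each held a single UMI of it.

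The endoderm-marked cells divided further by regional transcription factors. Cdx2, a homeobox factor of the posterior gut, was found in 43 of them, Pdx1 in 16, and Sox2, a factor of the anterior gut, in 10. Of the 14 genes on the gut tube list, 7 had 0 UMIs in all members, the posterior factors Cdx1, Cdx4, Hoxa13, and Hoxd13, the anterior factor Pax9, and Lgals4 and Fabp2. Of the 67 cells, 38 (56.7%, 44.0 to 68.8) carried Cdx2 without Pdx1 or Sox2, 12 carried Pdx1 without Cdx2, and 4 carried both. Sox2 was found without Cdx2 in 8 cells, and 10 cells had none of the 3 genes. Nkx6-2, a homeobox factor of the pancreatic bud, was found in 17 cells, of which 12 also carried Pdx1.

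The 39 cells with Cdx2 and no Pdx1 were set beside the 12 cells with Pdx1 and no Cdx2. Of these 12 cells, 3 also carried Pyy and belong to the 8 cells with hormone genes described below. Median depth was 5860 and 6477.5 UMIs. Afp was found in 29 of the 39 and 0 of the 12, Serpina1b in 34 and 0, and Apoa1 in 17 and 0. A count of 0 in 12 cells allows a share of up to 25.0%, and for Afp the exact intervals were 57.9% to 87.0% and 0% to 26.5%. Nkx6-2 went the other way, in 1 of 39 and 9 of 12 cells, as did Sox2, in 1 and 6. Rbp4 was found in 36 and 11 cells, and Foxa1 in 32 and 8, and the intervals of these shares overlapped. Shh, the hedgehog ligand that is known to be kept off in the pancreatic bud, was found in 21 of 39 (53.8%, 37.2 to 69.9) and 2 of 12 cells (16.7%, 2.09 to 48.4), and these intervals also overlapped. Since nearly all cells of both sets carried Rbp4, its share could not show a difference, and its level in summed UMIs is given beside it. The intervals of these levels cover counting error only, and the spread between cells was not tested. Rbp4 was at 1692 CPM (1541 to 1853) in the Cdx2 set and 778.2 CPM (600.6 to 991.9) in the Pdx1 set. Nepn went the other way, at 354.4 CPM (287.4 to 432.3) and 1748 CPM (1476 to 2056). When each cell was thinned to 4007 UMIs, Afp was found in 22 of 35 and 0 of 11 cells and Nkx6-2 in 0 of 35 and 8 of 11.

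**Figure D2:**
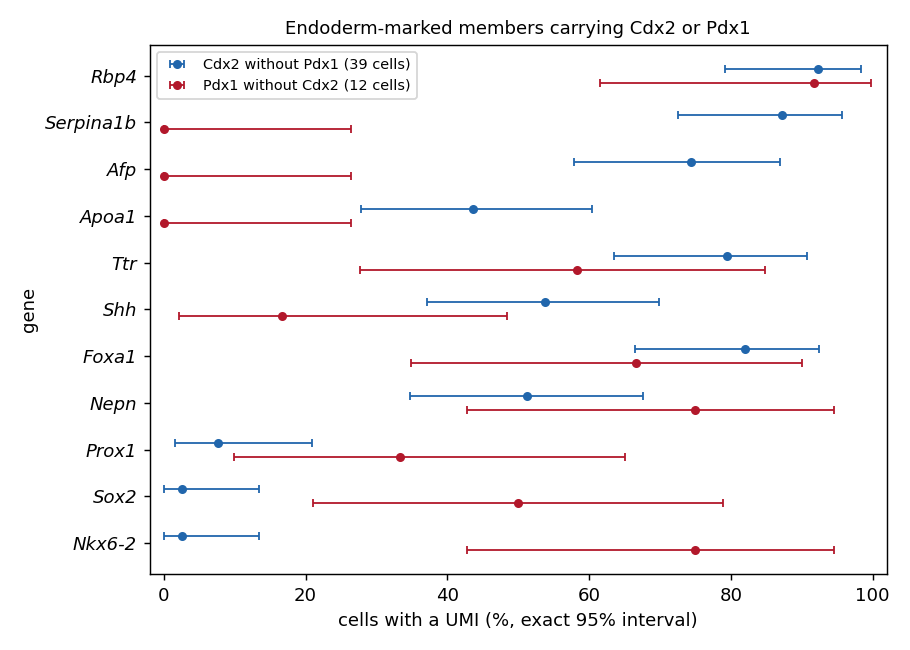
Share of endoderm-marked cells with a UMI of each gene, in percent with exact 95% intervals, in 39 cells with Cdx2 and no Pdx1 (blue) and 12 cells with Pdx1 and no Cdx2 (red). Serpina1b and Afp were found only in the former of these sets, Nkx6-2 mostly in the latter, and Rbp4 in nearly all cells of both.

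Other genes of the pancreatic progenitor list were sparse. Prox1 was found in 11 endoderm-marked cells and Hhex in 10, homeobox factors of early pancreas and liver, and the nuclear receptor gene Nr5a2 in 15. Ptf1a, which is needed for the pancreatic fate of the bud, had 6 UMIs in 3 members and 0 in comparison cells. Sox9 was found in 46 members (32.6%) and in 20.1% of comparison cells, with log2 ratio of 0.60.

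Outside the lists, the genes most confined to endoderm-marked cells among members were found by their ratio to the other 74 members. Slc38a5, a glutamine transporter, led with 440 UMIs in 8 cells and 0 in other members. Onecut2, a homeobox factor of the liver and pancreas, was found in 29 of 67 cells at 227.2 CPM, and the Wnt inhibitor Sfrp5 in 21. Nepn, a secreted inhibitor of TGF-beta signaling, was found in 38 cells at 883.7 CPM, and Lgals2, a galectin, in 25. Fam183b, Cdc42ep3, and Cpne8 were found in 36, 32, and 27 cells, and Cdc42ep3 also in 16.9% of comparison cells. Cartpt, the gene of a neuropeptide, was found in 3 cells, of which 1 held 76.2% of its 80 UMIs.

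Transcripts of the hormone genes of the rule, Gcg, Pyy, and Iapp, were held by 8 cells, all endoderm-marked. By falling Gcg, the counts of Gcg were 888, 254, 136, 74, 0, 0, 0, and 0 UMIs, in cells of 2554 to 9778 UMIs in all. Gcg was therefore a matter of 4 cells, and 1 of them held 65.7% of its 1352 UMIs in members. In the same order, Pyy had 155, 70, 111, 57, 26, 7, 6, and 1 UMIs, so that the 4 cells with Gcg also had the most Pyy. Iapp was found in 3 of the 4 Gcg cells, with 17, 2, and 14 UMIs. Of the other islet hormones, Ghrl (ghrelin) had 75 UMIs in the cell with most Gcg and 3 in 3 members outside the 8, Ins1 (insulin) had 9 and 4 UMIs in 2 Gcg cells, Sst (somatostatin) had 2 UMIs in 1, and Ins2 had 0 in all members. Ppy (pancreatic polypeptide) had 1, 2, and 1 UMIs in 3 of the 8 cells, of which 1 had no Gcg. Ghrl in that cell apart, these were counts of few molecules.

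The 8 cells shared genes that the rule had not used. Slc38a5 had 112, 112, 13, 73, 52, 65, 12, and 1 UMIs in them, and it was found in none of the other 133 members but in 68 comparison cells (1.95%), with 123 UMIs. Isl1, a LIM homeobox factor of endocrine cells, was present in 7 of the 8 with 1 to 16 UMIs. So was Chga, the gene of the granule protein chromogranin A, with 1 to 5. Over all 141 members, Isl1 was found in 9 and Chga in 7. Neurog3, which starts the endocrine program, was found in 2 cells, neither of them with Gcg. The same 2 cells and 1 more carried Pdx1, whereas the 4 Gcg cells and the cell with a single UMI of Pyy did not. None of the 8 cells carried Cdx2. The cell with a single UMI of Pyy had neither Isl1 nor Chga, and 1 UMI of Slc38a5. Outside the group, 14 cells held UMIs of the 3 hormone genes, with at most 4 of Gcg, 1 of Pyy, and 4 of Iapp, and they had been left out of the comparison cells by the rule.

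**Figure D3:**
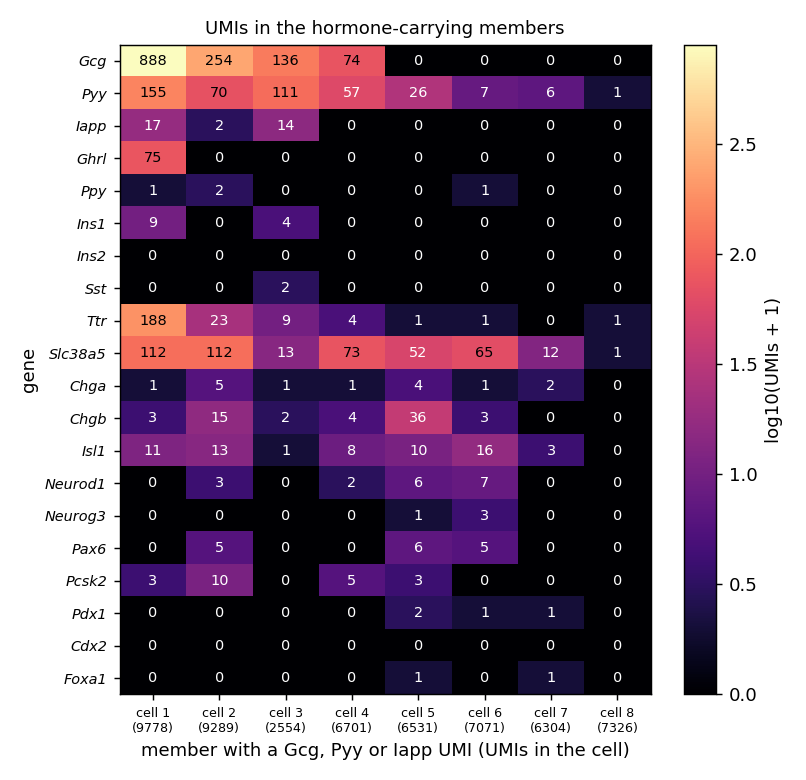
UMIs of hormone genes, granule genes, and transcription factors (rows) in the 8 members with a UMI of Gcg, Pyy, or Iapp (columns, with the cell's UMIs in parentheses), coloured by log10(UMIs + 1). Gcg is confined to cells 1 to 4 and Pdx1 to cells 5 to 7, none of the cells holds Cdx2, and Slc38a5 is present in all 8.

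The 8 genes of the nephric duct list were each found in between 2 and 35 of the 37 duct-marked cells. Of the transcription factors that specify the duct, Gata3 was found in 32 of 37 cells at 353.2 CPM, Pax2 in 21, Pax8 in 19, and Lhx1 in 16. Calb1, the gene of the calcium-binding protein calbindin, was found in 30 cells (81.1%, 64.8 to 92.0) at 807.7 CPM, in 0 of the 67 endoderm-marked cells, and in 0.316% of comparison cells. Wfdc2 was found in 35 cells, while Sim1, a transcription factor, and Ret, a receptor of the growing duct, were rare, in 6 and 2. These genes chose the subgroup, and their values are a description. Among genes outside the lists, Cthrc1, a secreted collagen-like protein, was found in 35 of 37 cells and in 17 of the other 104 members. Emx2, a homeobox factor needed for the urogenital epithelium, was found in 34 and 15, Rprm, an inhibitor of the cell cycle, in 33 and 25, and the Wnt inhibitor Dkk1 in 22 and 2. Mal, Sept4, Tmem37, Hoxb6, Gsn, and Sfrp2 led as well, in 12 to 28 of the cells. Several of these genes were also found in comparison cells, Sfrp2 in 20.9% (against 32.4% of duct-marked cells), Hoxb6 in 16.9%, Rprm in 13.3%, Emx2 in 13.0%, Cthrc1 in 12.2%, and Tmem37 in 11.1%. The 15 other members with Emx2 were all unmarked cells.

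Krt19 and Vim differed among the subgroups, while Krt8 and Krt18 were frequent in all 3, in 86.1% to 95.5% and 75.7% to 94.0% of cells. Krt19, a keratin of simple epithelia, was found in 3 of 37 duct-marked cells (8.11%, 1.70 to 21.9), in 45 of 67 endoderm-marked cells (67.2%, 54.6 to 78.2), and in 26 of 36 unmarked cells. Vim, the intermediate filament gene of mesenchyme, was found in 37 endoderm-marked, 3 duct-marked, and 4 unmarked cells, and in 79.1% of comparison cells. After thinning to 4007 UMIs, Vim was found in 26 of 61 endoderm-marked cells (42.6%), 2 of 36 duct-marked cells (5.56%), and 65.8% of comparison cells. Endoderm-marked cells thus lay between the other members and the comparison cells for Vim, at 191.5 CPM against 29.4 in duct-marked and 435.4 in comparison cells.

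An enzyme gene of the exocrine pancreas list was found mainly outside the endoderm-marked cells. Cela1, an elastase of acinar cells, was found in 24 of 37 duct-marked cells (64.9%, 47.5 to 79.8) at 157.0 CPM, in 3 endoderm-marked cells at 6.31 CPM, and in 4 unmarked cells. In comparison cells it was found in 0.747%. Clps and Spink1, also on this list, had 0 UMIs in comparison cells. Clps, pancreatic colipase, had 27 UMIs in 6 endoderm-marked cells, 55.6% of them in 1 cell, and Spink1, a trypsin inhibitor, had 21 UMIs in 15 members, 11 of them endoderm-marked. Of the 17 listed genes found in the files, 10 had 0 UMIs in the 141 cells, among them Cel, Pnlip, Prss2, Ctrb1, and Cela3b.

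For the 36 unmarked cells, leading genes were sought only outside the rule genes and the lists used for sorting. Genes of the duct list were also found, Wfdc2 in 17 and Gata3 in 14 of the 36 cells. Cxcl14, a chemokine, was found in 24 of them (66.7%, 49.0 to 81.4) at 1200 CPM and in 7 of the other 105 members at 10.1 CPM. Wnt6, a Wnt ligand, was found in 25 and 1, Sfn, the 14-3-3 sigma gene, in 21 and 3, and the connexin gene Gjb2 in 17 and 1. Hspb1, Barx2, Upk3bl, Krt15, and Wnt4 were likewise found in 15 to 26 of the 36 cells and in at most 8 of the others, Wnt4 and Hspb1 also in 9.51% and 6.00% of comparison cells. Perp, a desmosomal protein and the only epithelial list gene among the leading ones, was found in 25 and 12. No list was made for such cells, and they are given no cell type name. They held 1 of the 17 cells with Pdx1, with 1 UMI, and none with a hormone gene.

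**Figure D4:**
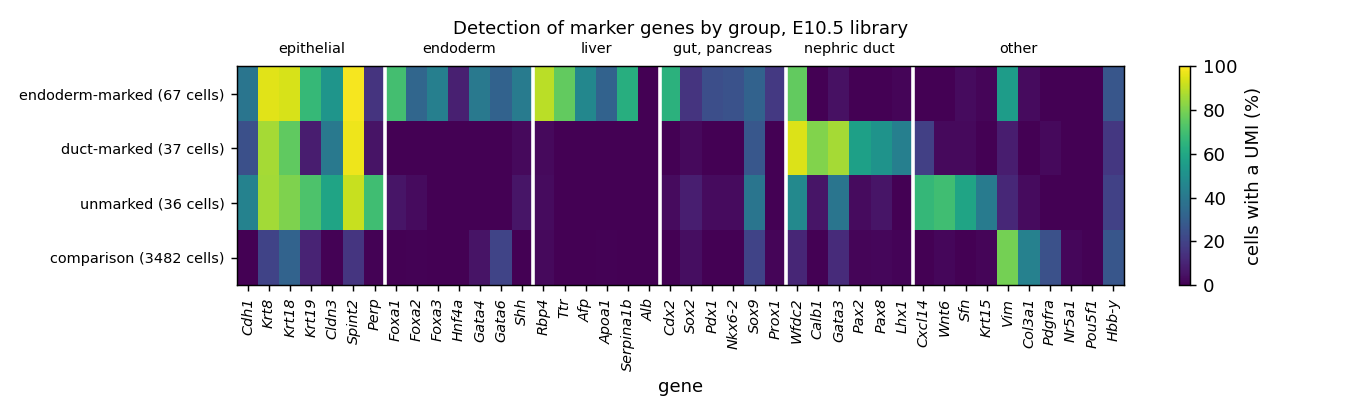
Share of cells with a UMI (color, percent) of genes from the marker lists and of leading genes, in the 67 endoderm-marked, 37 duct-marked, and 36 unmarked members and in 3482 comparison cells. Krt8, Krt18, and Spint2 are frequent in all 3 subgroups. Liver list genes and Cxcl14 with Wnt6 are each frequent in a single subgroup at most, while duct genes such as Wfdc2 and Gata3 also reach others.

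In the summed profile, members were then compared with comparison cells over 11756 genes that had at least 50 UMIs in the retained cells. Of these, 473 (4.02%) were at least 2-fold higher in members on the log2(CPM + 10) scale and 225 (1.91%) at least 2-fold lower, and 67.8% of the 698 were higher. The median over all 11756 genes was 0.04. With TMM factors the counts were 363 and 276, so that 56.8% were higher, and the median moved to -0.09. A gene of low abundance passed the limit of 50 UMIs only through the group where it was high, so the counts of listed genes below carry no weight as support. The added 10 CPM also holds down the ratio of genes with few UMIs.

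The epithelial list stood highest by number. All 19 of its genes tested, of 27 listed, were at least 2-fold higher, with a median log2 ratio of 2.90. Spint2, an inhibitor of membrane serine proteases, was found in 136 of 141 cells (96.5%) and in 15.3% of comparison cells, at 530.7 and 22.7 CPM (23.4-fold, 20.8 to 26.2). Krt8 and Krt18, keratins of simple epithelia, were found in 128 and 121 cells, and at log2 ratios of 3.23 and 2.66. Cdh1, the gene of E-cadherin, had 68 UMIs in 52 members and 0 UMIs in 3482 comparison cells, as had Esrp1 and Rab25 with 42 and 50 UMIs in members. The comparison cells lack 3 junction genes by the rule, so that these ratios are in part set by it.

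The liver list had 8 of 9 tested genes higher, with a median log2 ratio of 3.69, and the nephric duct list 6 of 7, with a median of 1.73. Of the endoderm transcription factors and hedgehog ligands, 5 of 8 were higher, Foxa1, Foxa2, Gata4, Elf3, and Shh, and the median was 1.42. For the gut tube list 1 of 3 was higher, Cdx2, for pancreatic or duodenal progenitors 3 of 6, Nkx6-2, Prox1, and Hhex, and for exocrine pancreas 1 of 3, Cela1. Their medians were 0.62, 0.84, and 0.58. Of the 12 pancreatic endocrine genes tested, 4 were higher, Pax6, Chga, Chgb, and Ghrl, and 8 were within 2-fold, with a median of 0.84. Chgb, chromogranin B, had 63 UMIs in 6 members, all among the 8 cells with Gcg, Pyy, or Iapp. Without these 8 cells, a setting chosen after their values were seen, 0 of the 12 genes were at least 2-fold higher and 1 was lower, with a median of -0.29, so that the endocrine genes of the group rested on them.

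**Figure D5:**
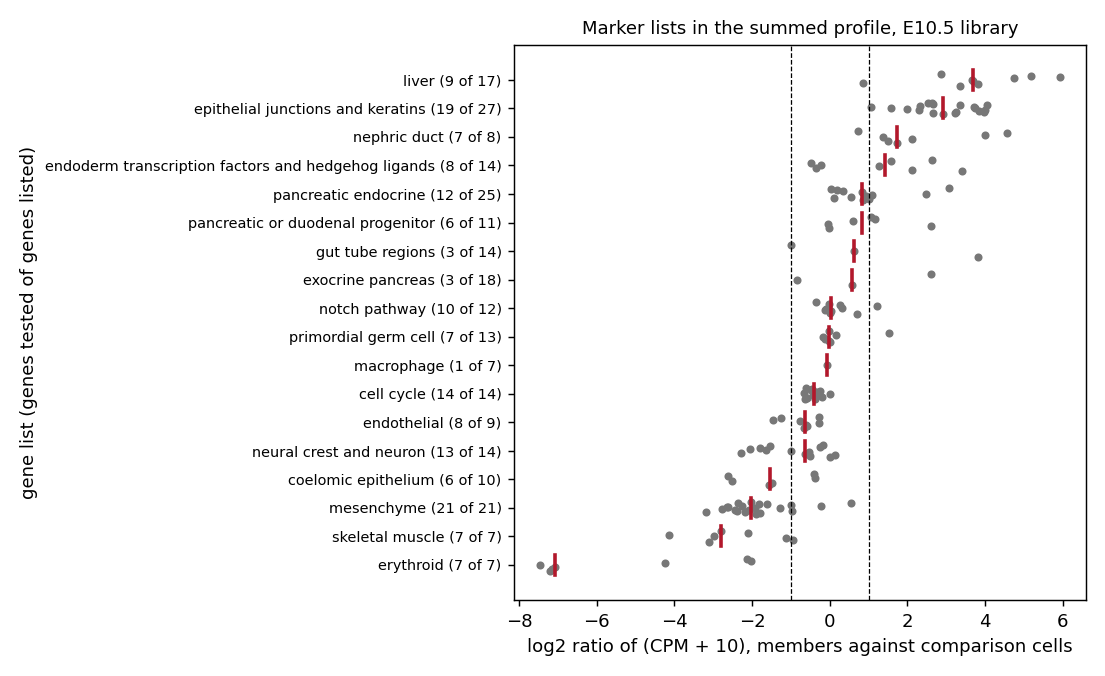
Log2 ratios of CPM + 10 between members and comparison cells for each tested gene (gray) of the 18 marker lists, with the list's median (red) and dashed lines at 2-fold. The axis names give the genes tested of those listed. Liver, epithelial, nephric duct, and endoderm lists lie highest by median and the erythroid list lowest.

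Most mesenchymal, muscle, and coelomic epithelium markers tested were lower, whereas most of the endothelial and of the neural crest and neuron lists did not pass 2-fold. Of 21 mesenchymal genes, 18 were at least 2-fold lower and 0 higher, with a median log2 ratio of -2.03. Col3a1, a fibrillar collagen, had 3 UMIs in members and was found in 44.1% of comparison cells, and Foxf1, Hand1, and Lum had 0 UMIs. Summed over the list, the level was 242.4 CPM in members and 1406 CPM in comparison cells, with Vim the gene of most UMIs in both. The other 3 genes were Pdgfrb, Osr1, and Postn, with log2 ratios of -0.97, -0.24, and 0.54. The muscle list had 6 of 7 genes lower (median, -2.80), the coelomic epithelium list 4 of 6 (-1.53), the neural crest and neuron list 6 of 13 (-0.63), and the endothelial list 2 of 8 (-0.63). Lhx9 and Nr5a1, transcription factors of the gonadal primordium, had 0 UMIs in members. Nr5a1 was found in 1.87% of comparison cells, so that a share of up to 2.13% in the 141 cells cannot be told from it.

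Globin transcripts were far lower in the sum, while the share of cells with Hbb-y was close. The erythroid list summed to 76.4 CPM in members and 15957 CPM in comparison cells, and 7 of 7 genes were lower, with a median of -7.06. The embryonic beta globin gene Hbb-y had 44 UMIs in 31 members (22.0%), with a median depth of 6852 UMIs, and was found in 26.8% of comparison cells, of median depth 8180. After thinning these were 16.3% and 15.2%. The comparison group held 96 cells with at least 3 erythroid genes, and with these cells left out, a setting chosen after seeing the data, the median log2 ratio was 0.052. The share of members with a UMI of Hbb-y was thus not above that of the comparison cells before thinning and close to it after, and is not read as expression. Hba-a1 and Hba-a2 are near-identical copies, and the split between them is uncertain.

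Germ cells carry Epcam as well, and their markers were looked for in the group. Dppa3, Dppa5a, Pou5f1, Nanog, Dazl, and Ddx4 had 0 UMIs in the 141 cells, and no member carried 3 of the 13 genes listed. The list summed to 27.7 CPM in members and 6.04 in comparison cells, and its gene of most UMIs was Prdm1 in both. Prdm1, a repressor known from germ cells and from other embryonic tissues, was the single gene of 7 tested that was higher, with 24 UMIs in 16 cells, all endoderm-marked. The macrophage list had 1 gene tested, Fcer1g, within 2-fold (-0.07).

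Genes of proliferation and of Notch signaling, which sets the balance of endocrine and progenitor cells in the pancreas, were also looked at. None of the 14 cell cycle genes passed 2-fold, and their median was -0.41, with 1835 CPM in members and 2533 CPM in comparison cells. At least 3 of the 14 were carried by 99 members (70.2%) and by 92.9% of comparison cells. Median depth was 6852 and 8180 UMIs, and its part in these shares was not tested. Of 10 Notch genes tested, 1 was at least 2-fold higher, the target gene Hes1, in 84 members (59.6%) at 194.7 CPM and in 38.3% of comparison cells at 77.4 CPM. The median of the list was 0.02. Hes1 was found in 40 of 67 endoderm-marked, 20 of 37 duct-marked, and 24 of 36 unmarked cells, with intervals that overlapped.

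Over all genes, the 15 with the highest ratios were 5 rule genes, Gcg, Cldn6, Epcam, Cldn7, and Pyy, and 10 more. Rbp4, Nepn, Ttr, Ambp, and Slc38a5 came from the endoderm-marked cells, Calb1 from the duct-marked, and Cxcl14 from the unmarked. Spint2, Wfdc2, and Slc2a3, a glucose transporter, were found across subgroups, Wfdc2 in 51 endoderm-marked, 35 duct-marked, and 17 unmarked cells, although it had been put on the nephric duct list. The 15 lowest were 5 globin genes, the muscle genes Actc1, Myog, and Mylpf, and Acta2, Col3a1, Crabp1, Dlk1, Asb4, Meox1, and Pcolce. Dlk1, a membrane protein of immature mesenchyme, was found in 42 members (29.8%) at 122.2 CPM and in 85.1% of comparison cells at 978.7 CPM.

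The rule was also applied to the other libraries, each with its own limits on cells. It found 5 of 2101 cells at E11.5 (0.238%, 0.0773 to 0.554), 9 of 2764 at E12.5 (0.326%, 0.149 to 0.617), and 3 of 2285 at D6 (0.131%, 0.0271 to 0.383). Of these, 4 of 5 at E11.5 and 9 of 9 at E12.5 carried at least 3 germ cell markers, against 0 of 141 at E10.5 and 0 of 3 at D6. At each of E11.5, E12.5, and D6, 1 of the cells found by the rule was endoderm-marked. At E11.5 and E12.5, most cells found by the rule thus carried 3 or more germ cell markers. No member at E10.5 reached that number, although Prdm1, Nanos3, and Tfap2c were found in 16, 3, and 2 members. Among all retained cells, 210 of 2101 reached it in the E11.5 library and 457 of 2764 in the E12.5 library. In the E10.5 library, 9 of 3837 did. Median depth of the cells found by the rule was 23860 UMIs against 11926 in the whole E11.5 library. For E12.5 it was 20887 against 10946, and for E10.5 it was 6852 against 8167. The part of depth in the marker counts was not tested. Pdx1, Gcg, and Pyy had 0 UMIs in the retained cells of the 3 libraries, which allows shares of up to 0.143%, 0.109%, and 0.131%. Iapp was found with a single UMI each in 4 cells at E11.5 (0.190%, 0.0519 to 0.487) and 5 at E12.5 (0.181%, 0.0588 to 0.422) and in 0 at D6, against 6 retained cells at E10.5 (0.156%, 0.0574 to 0.340) with up to 17 UMIs. The dissection differed between E10.5 and the later stages, and stage and dissection cannot be told apart, nor can kit, strain, and culture at D6.

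Of the E10.5 barcodes, 12 were shared with E11.5 and 19 with E12.5, and 2 members had a barcode that E12.5 shared. The 128 cells with the highest doublet scores in the library included 12 members (8.51%) and 104 comparison cells (2.99%). Doublets were left in, and their part in the values above was not tested beyond leaving these cells out, which moved the share of members from 3.67% to 3.48%.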

How the data were processed

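The authors deposited UMI counts per gene and cell for each library, without normalization, mapped to mm10. The submitters' processing notes name Cell Ranger 3.0.2, while the matrix header names 6.0.0. Cells were retained by the limits that the methods give for each library. Members, marker lists, and alternatives were chosen with earlier results of these data known. Named genes are the 7 rule genes, listed genes, the 15 per direction with the largest ratios and at least 100 CPM, and the 10 leading each subgroup, of which a few are not reported here. Counts were summed over the cells of a group and scaled to CPM, with 10 CPM added before log2. Cells are not replicates, so no p-value is given. Shares carry exact binomial (Clopper-Pearson) and ratios exact conditional intervals at 95%, and a count of 0 allows 3 divided by the number of cells. Doublets were scored with Scrublet in scanpy 1.11.5, at an expected 0.8% per 1000 cells, and left in. TMM factors came from edgeR 4.0.16 in R 4.3.3. On simulated counts of members and comparison cells, 99.5% of 200 changed genes among 11756 were recovered within 0.5 (log2). The 200 genes were drawn only from those above a minimum of expected UMIs in members, and the counts held counting error only. Genes with few UMIs, or with most UMIs in a single cell, were thus not covered. Steps were run in Python 3.11.15 (matplotlib 3.10.9, pandas 2.3.3, scipy 1.17.1, numpy 2.4.6). Gene positions are from GENCODE M21 on GRCm38, which held 99.6% of the 31053 identifiers, and promoters from RefSeq.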

Additional observations from a re-analysis of the deposited data

Results flagged for a closer look

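Cells that failed the limits on gene number or mitochondrial content were not used in the report, and some of them met the rule. Of 636 such cells of the E10.5 library, 24 carried at least 3 of the 7 genes (3.77%, 2.43 to 5.56), a share close to the 3.67% of retained cells. Of the 24 cells, 16 had too many detected genes, 7 had too few, and 2 were over the mitochondrial limit, and their median depth was 14388 UMIs. Of these cells, 9 were endoderm-marked, 8 were duct-marked, and 7 had neither set of markers.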

How the results depend on the processing

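No paired analysis was possible because each condition has 1 library, and no replicate could be left out. The limits on the rule set the size of the group: it held 4.69% of retained cells with at least 2 of the 7 genes, 0.495% with at least 4, 2.42% when a gene counted from 2 UMIs, and 2.84% after thinning. In the other libraries, the share with the E10.5 limits on cells was 0.0700% for E11.5 gonads and 0.133% for E12.5 gonads, and after thinning 0% and 0.0362%. With a pseudocount of 1 CPM, 1166 genes were at least 2-fold higher and 957 lower, and 7 of 18 lists had a median at least 2-fold higher, against 473, 225, and 4. With members by at least 4 genes, 19 cells, these were 951, 821, and 7, and the nephric duct median turned to -0.32. With endoderm-marked members only, an alternative chosen after seeing the data, it was -0.067, and the erythroid median was 0.052 without erythroid-marked comparison cells, also chosen so. By construction, the last 2 settings remove the cells that carry the list, and all 37 duct-marked members carried exactly 3 rule genes. With marking from 2 genes of a list, 17.0% of members were unmarked, but 17.7% of comparison cells were endoderm-marked. When a marker counted from 2 UMIs, 36.2% of members were endoderm-marked, 17.0% duct-marked, and 46.8% unmarked. The other 55 values of these results under the alternatives stayed within their limits, 199 values of single list medians kept their side of 2-fold while 14 crossed it, and leaving out germ-marked members changed nothing, since there were 0. Of 124 levels of at least 100 CPM in a subgroup, 8 fell by more than 1.5 times without the cell with most UMIs of the gene, also chosen after seeing the data, those of Cartpt, Chgb, Gcg, Ghrl, Pyy, and Ttr in endoderm-marked and of Ccnb1 and Sfrp2 in duct-marked cells.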

Other observations

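The single member with markers of both endoderm and nephric duct had 12496 UMIs and 3726 detected genes, against a median of 6852 UMIs and 2622 genes in all members. It carried 11 UMIs of Cdx2, 4 UMIs on the nephric duct list, of which Gata3 had 2, and none of the hormone genes or Pdx1. Ghrl, the ghrelin gene, had 78 UMIs in 4 members, of which 75 were in the cell with most Gcg. The nephric duct list was met by 24 comparison cells, and Gata3 alone was found in 12.2% of comparison cells, at 22.2 CPM. Apom, an apolipoprotein gene on the liver list, had 15 UMIs in 9 duct-marked cells and 0 in endoderm-marked cells.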
